A study of Mus musculus with 6 samples.

Results

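Immediate-early genes and heat shock genes, 2 classes of inducible genes, were compared between p16+ and p16- stromal cells of injured mouse quadriceps. The members are 36 listed genes out of 55536 gene rows in the count tables, 27 in the immediate-early class and 9 in the heat shock class, and each was found by matching its identifier to its symbol in GENCODE release M21. All 36 had enough counts to enter the test of 15903 genes. Cells came from C57Bl/6 mice that carried a tdTomato reporter of p16, the product of Cdkn2a that inhibits cyclin-dependent kinases 4 and 6 and is a common marker of senescent cells. Cells with the reporter signal gave 3 libraries (p16+) and cells without it gave 3 (p16-), all sorted as CD45-, CD31- and CD29+, which removes leukocytes and endothelium and keeps cells with integrin beta-1. The labels' protocol describes bilateral quadriceps resection in mice aged 10 weeks, with polycaprolactone particles (30 mg), a decellularized matrix or saline (50 uL) placed in the defect, and harvest at 1 or 6 weeks. Which filler and harvest time each library had, how the reporter was built, how the tissue was dissociated and how long sorting took are not given in the sources used here. Nothing in the labels ties the replicates to different animals. The p-values therefore reflect the spread among these 6 samples, which may be technical.

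Immediate-early genes are transcribed within minutes of a signal such as a growth factor, stress or the handling of tissue, without new protein synthesis. Kinases of the MAPK pathways activate factors already bound at their promoters, among them SRF with its ETS partners at CArG boxes and CREB or ATF proteins at cAMP response elements (CRE). Most of the products are transcription factors, and others, such as DUSP phosphatases and the RNA-binding protein ZFP36, shut the response down. Heat shock proteins are chaperones that bind unfolded proteins, and many are induced by the factor HSF1 at heat shock elements.

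Total counts per library were 35253406 to 37861713 in p16+ and 36507067 to 39103909 in p16-, and CPM are counts scaled by TMM-normalised library size, on which 3 counts equal 0.0737 to 0.0876. Cdkn2a was measured at 6.91, 8.82 and 7.74 CPM in p16+ and at 2.41, 1.77 and 2.20 CPM in p16- (log2 fold change 1.88 with an SE of 0.22, adjusted p = 2.0e-05), the order that the sort labels give. Of 10 stromal markers, 7 were higher in p16+, and their summed level was 169359 to 178443 CPM against 100046 to 123129 in p16-. Summed CPM in p16+ and p16- was 247 to 285 and 178 to 203 for 10 macrophage and leukocyte markers, 1725 to 1757 and 1127 to 1446 for 8 pericyte and smooth muscle markers, and 208 to 247 and 127 to 158 for 5 satellite cell markers. In these lists 3 of 10, 5 of 8 and 2 of 5 genes were higher in p16+. Over all genes tested, 8.69% were higher and 8.04% were lower at an adjusted p under 0.05 in edgeR. Of 7 endothelial markers, 3 were higher in p16+ (Pecam1, Emcn and Vwf), 1 was lower (Tek) and 3 did not pass, while the sum of the list, most of it Tek, was 67.6 to 94.8 CPM in p16+ against 173 to 206 in p16-. Of 6 glial markers, 4 were lower in p16+, with sums of 40.1 to 52.3 and 73.1 to 132 CPM. It was 20.5 to 31.9 and 19.2 to 26.2 CPM for 10 muscle fibre markers, 4.601 to 6.77 and 5.55 to 6.61 CPM for 5 neutrophil markers, and 0.358 to 0.844 and 0.0806 to 0.177 CPM for 5 lymphocyte markers, of which Cd3e and Nkg7 were at 0 counts in all p16- libraries and Cd3d in all p16+ libraries. The part of these cell type markers in the results on the members was not tested. In bulk libraries, fewer cells that express a gene and less of its RNA per cell cannot be told apart.

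Promoter sequences of 28 of the 36 members (22 immediate-early and 6 heat shock) were found in a RefSeq table on GRCm38.p6, and the 250 bases before each listed start were searched on both strands. The CRE core TGACGT was present for 7 of the 22 immediate-early genes (Fos, Egr2, Atf3, Dusp1, Dusp5, Nr4a3 and Maff), against 7.29% of all 27025 genes in the table. The EGR site GCGNGGGCG was present for 9 of 22 (Fosb, Fosl2, Dusp2, Zfp36, Nr4a1, Nr4a2, Klf2, Klf4 and Maff), against 5.33% of all genes. A CArG box was present for 3 of 22 (Egr2, Dusp5 and Zfp36), against 1.62% of all genes, and the AP-1 site TGANTCA for 1 (Csrnp1), against 7.82%. None of these 4 motifs was present in the windows of the 6 heat shock genes. A heat shock element, searched as GAANNTTC or TTCNNGAA, was present for 4 of the 6 heat shock genes (Hspa1a, Hspa1b, Hsph1 and Hspb1) and 3 of the 22 immediate-early genes (Fosl2, Jun and Egr2), against 14.5% of all genes. A gene with several listed starts was counted once if any window held the motif. A match to letters is a description and not a measured binding site. Sites outside these windows were not searched, so a gene without a match may still hold the motif elsewhere.

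The 220 bases upstream of 4 immediate-early genes, picked because they hold a motif, are shown as examples. They are Fos, the most abundant member, Maff and Klf4, which were lower in p16+, and Nr4a2, which was higher. The EGR site was present in Maff, Klf4 and Nr4a2 alike, and a relation of motif to direction was not tested. Sequences run 5′ to 3′ along the strand of the gene and end at the base before a start listed for it in the RefSeq table. Capitals mark the motifs. Where a gene had several listed starts, the window that held the motifs is shown. The Fos window is chr12:85473670-85473889 (plus strand), with the CRE core beginning 66 bases upstream of the start. The Maff window is chr15:79347300-79347519 (plus strand), where the CRE core matches both strands at 29 and 27 bases upstream and an EGR site lies 88 bases upstream. The listed start of this window lies inside the gene, which begins at 79346621 in GENCODE M21. The Klf4 window is chr4:55532476-55532695 (minus strand), with EGR sites on the opposite strand at 211 and 194 bases upstream. The Nr4a2 window is chr2:57124004-57124223 (minus strand), with an EGR site 74 bases upstream.
Fos: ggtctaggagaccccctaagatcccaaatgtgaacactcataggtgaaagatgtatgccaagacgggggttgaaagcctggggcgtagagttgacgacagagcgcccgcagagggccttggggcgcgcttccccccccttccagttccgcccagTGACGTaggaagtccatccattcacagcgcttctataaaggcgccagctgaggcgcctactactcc
Maff: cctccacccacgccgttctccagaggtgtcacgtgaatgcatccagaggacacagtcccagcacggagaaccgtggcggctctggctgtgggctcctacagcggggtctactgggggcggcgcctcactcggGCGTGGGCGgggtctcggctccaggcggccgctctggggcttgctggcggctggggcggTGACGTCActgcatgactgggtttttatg
Klf4: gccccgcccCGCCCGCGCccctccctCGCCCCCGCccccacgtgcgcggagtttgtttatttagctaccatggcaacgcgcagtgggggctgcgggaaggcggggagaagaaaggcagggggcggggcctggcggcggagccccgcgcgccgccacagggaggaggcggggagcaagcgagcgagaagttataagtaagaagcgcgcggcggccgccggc
Nr4a2: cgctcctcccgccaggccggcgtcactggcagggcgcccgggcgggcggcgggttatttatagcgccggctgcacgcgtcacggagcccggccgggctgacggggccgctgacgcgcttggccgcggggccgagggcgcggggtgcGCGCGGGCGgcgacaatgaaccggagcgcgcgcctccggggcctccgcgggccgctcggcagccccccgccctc

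Immediate-early transcripts were abundant in both groups. Together the 27 members held 2.68% to 2.85% of all counts in p16+ libraries and 3.24% to 3.78% in p16- libraries, and their summed level was 28416 ± 761 CPM in p16+ against 34740 ± 2521 CPM in p16- (± SD, 3 libraries each). On the scale of TPM (counts divided by exonic length and scaled to the same total in every library, mean of the 6 libraries), Fos was the most abundant member at 8382 TPM and ranked 10 among all genes. Egr1 followed at 3768 TPM, Junb at 3609, Zfp36 at 3143, Jun at 3042, Atf3 at 2874 and Fosb at 2625, and the least abundant were Fosl1 at 3.12 TPM and Dusp2 at 2.53 TPM.

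At an adjusted p under 0.05 (edgeR quasi-likelihood test, Benjamini-Hochberg over 15903 genes), 11 of the 27 immediate-early genes were lower in p16+ (40.7%), 2 were higher (7.41%) and 14 did not pass. Over all genes tested, 8.04% were lower and 8.69% were higher, 16.7% in either direction. The median log2 fold change of the 27 was -0.22, with a range of -0.76 to 0.35, and that of all genes tested was -0.01. The 3 p16+ values lay below all 3 p16- values for 14 members and above them for 3, and the groups overlapped for 10. Over all genes the groups did not overlap for 33.1%, with p16+ lower for 16.5% and higher for 16.6%. With p16+ replicate 2 or p16+ replicate 3 left out, 7 members were called lower, and those called higher numbered 1 without p16+ replicate 2, 0 without p16+ replicate 3 or p16- replicate 3, and 4 without p16- replicate 1. Over all genes, 960 and 966 were called lower without p16+ replicate 2 and p16+ replicate 3, in place of 1278. Those called higher numbered 978 and 989 in these fits, 977 without p16- replicate 3 and 1278 without p16- replicate 1, in place of 1382. With scaling by library size alone, 15 members were called lower and 0 higher, beside 1882 lower and 1059 higher of all genes in place of 1278 and 1382.

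**Figure D1:**
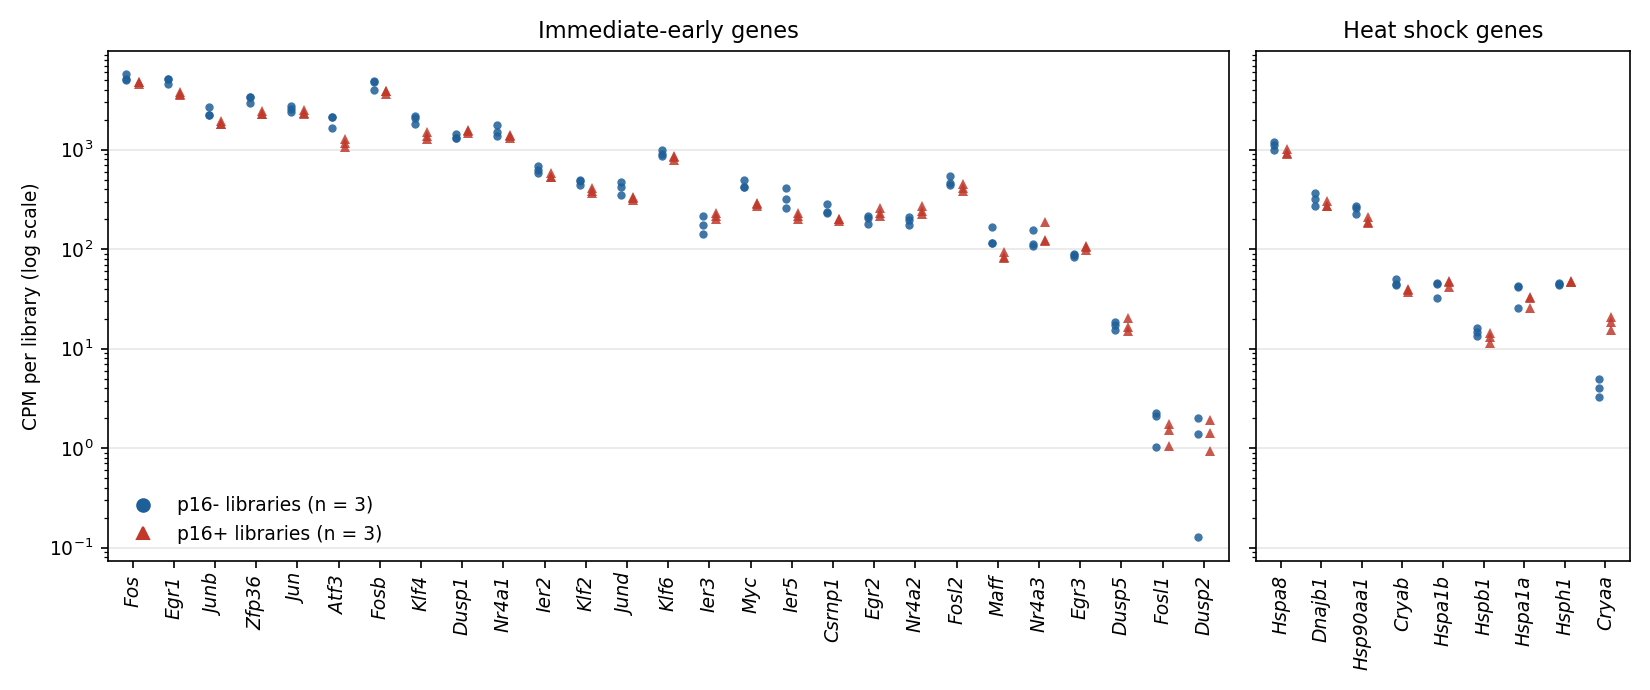
Level of every member in each of the 6 libraries, in CPM on a log axis, with immediate-early and heat shock genes apart and each point 1 library. Immediate-early genes span from Dusp2 and Fosl1 near 1 CPM to Fos at 4584 to 5767 CPM, and Cryaa is the member whose p16+ and p16- points lie farthest apart.

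The FOS proteins pair with JUN proteins to form the AP-1 transcription factor. Fos (chr12:85473890-85477273, plus strand, GRCm38) was measured at 4820, 4584 and 4745 CPM in p16+ and at 5135, 5011 and 5767 CPM in p16-. All p16+ values lay below all p16- values, but the difference did not pass the test (log2 fold change -0.17 with an SE of 0.08, adjusted p = 0.184). Fosb, a close relative of Fos, was measured at 3929, 3605 and 3856 CPM in p16+ against 4852, 4005 and 4768 CPM in p16-, again without overlap (-0.26, adjusted p = 0.0569). Fosl2 averaged 414 ± 33.9 CPM in p16+ and 484 ± 57.1 CPM in p16-, with overlapping values (adjusted p = 0.125). Fosl1 was near 1 to 2 CPM in all libraries (adjusted p = 0.682), and 57.2% of its exonic length is overlapped by Ccdc85b, so that its count is uncertain in data without strand. None of the 4 FOS genes passed in edgeR after adjustment. At an unadjusted p under 0.05, 2 were lower, but the share of all genes at that threshold was not counted. DESeq2 and limma-voom each called 1 lower. That gene was Fosb, which passed in 8 of the 15 alternatives, without p16- replicate 2 among them (adjusted p from 0.00786 to 0.236 over all 15). With scaling by library size alone, Fos (0.0452) and Fosl2 (0.0392) passed as well.

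Jun proteins were represented by 3 genes, of which Junb and Jund were lower in p16+. Junb was measured at 1934, 1827 and 1803 CPM in p16+ against 2690, 2216 and 2211 CPM in p16- (log2 fold change -0.36 with an SE of 0.09, adjusted p = 0.0107). Jund, which is often expressed at rest, was measured at 332, 312 and 330 CPM in p16+ against 474, 348 and 419 CPM in p16- (-0.35 with an SE of 0.10, adjusted p = 0.0219). Neither gene had overlapping groups, and in both p16- replicate 1 was the highest library. For Jund, 52.6% of the exonic length is overlapped by the model Gm11175 on the opposite strand, which had 0 counts in all 6 libraries. In data without strand, fragments in such an overlap can be lost from both genes. The 0 counts therefore do not show that the Jund count is complete, and it is uncertain. Jun, measured at 2474, 2308 and 2278 CPM in p16+ against 2568, 2401 and 2767 CPM in p16-, had overlapping groups and did not pass (-0.13, adjusted p = 0.32). Junb no longer passed without p16+ replicate 2 (adjusted p = 0.0606) or p16+ replicate 3 (0.0717). Jund no longer passed when any library other than p16- replicate 2 was left out (0.0505 to 0.106).

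The 4 further members that encode transcription factors outside the larger families, Atf3, Myc, Maff and Csrnp1, were all lower in p16+. ATF3 is a stress-induced factor that often represses its targets and can pair with JUN proteins. Atf3 (chr1:191170296-191218039, minus strand) was measured at 1287, 1060 and 1168 CPM in p16+ against 2150, 1665 and 2123 CPM in p16-. The highest p16+ library lay below the lowest p16- library, and the mean was 1.69-fold lower in p16+ (log2 fold change -0.76 with an SE of 0.10, adjusted p = 8.07e-05), the lowest fold change of the 36 members. Myc, which drives genes of growth and division, was measured at 272, 287 and 281 CPM in p16+ against 496, 417 and 418 CPM in p16- (-0.66 with an SE of 0.08, adjusted p = 3.97e-05). Its p16+ values spread by only 7.78 CPM (SD) around a mean of 280, against 45.2 around 444 in p16-.

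Maff, a small MAF protein without a transactivation domain of its own, was measured at 82.6, 82.1 and 94.1 CPM in p16+ against 166, 114 and 114 CPM in p16- (-0.61 with an SE of 0.12, adjusted p = 0.00215). Csrnp1, a nuclear factor named for its cysteine- and serine-rich sequence, was measured at 200.4, 191 and 202 CPM in p16+ against 283, 237 and 229 CPM in p16- (-0.34 with an SE of 0.09, adjusted p = 0.0134). The groups did not overlap in either gene, and p16- replicate 1 was again the highest library. Csrnp1 no longer passed without p16+ replicate 2 (adjusted p = 0.0764) or p16+ replicate 3 (0.0501), whereas Atf3, Myc and Maff passed in all 15 alternative settings.

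The 3 EGR genes, zinc-finger factors that bind GC-rich sites, did not move together. Egr1 (chr18:34859823-34864984, plus strand) was measured at 3625, 3582 and 3796 CPM in p16+ against 5138, 4561 and 5077 CPM in p16-, without overlap (log2 fold change -0.43 with an SE of 0.08, adjusted p = 0.00126). Egr3 was measured at 97.7, 108 and 104 CPM in p16+ against 88.6, 87.4 and 83.1 CPM in p16-, and was higher in p16+ without overlap (0.26 with an SE of 0.07, adjusted p = 0.0256). Egr2 averaged 234 ± 20.0 CPM in p16+ and 200.2 ± 18.8 CPM in p16-, with overlapping groups (0.23, adjusted p = 0.0999). The ratio of Egr1 to Egr3 counts within a library, which library scaling does not change, was 37.1, 33.1 and 36.5 in p16+ and 58.0, 52.2 and 61.1 in p16-. Egr3 no longer passed with scaling by library size alone (adjusted p = 0.103) or when p16+ replicate 2 (0.132), p16+ replicate 3 (0.089) or p16- replicate 3 (0.12) was left out. Among other settings, Egr2 passed without p16- replicate 1 (0.0211) and with a replicate block.

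Orphan nuclear receptors of the NR4A family are controlled mainly by their own amount, since they need no ligand. Nr4a2 (chr2:57106830-57124003, minus strand) was measured at 227, 244 and 274 CPM in p16+ against 212, 197 and 175 CPM in p16-, higher in p16+ without overlap (log2 fold change 0.35 with an SE of 0.09, adjusted p = 0.0143). Nr4a1 was measured at 1365, 1323 and 1419 CPM in p16+ against 1750, 1383 and 1499 CPM in p16-, with overlap (-0.17, adjusted p = 0.226). Nr4a3 averaged 144 ± 37.2 CPM in p16+ and 125 ± 26.96 CPM in p16- (0.20, adjusted p = 0.599), with its highest value, 187 CPM, in p16+ replicate 3. The ratio of Nr4a1 to Nr4a2 counts was 6.02, 5.42 and 5.18 in p16+ and 8.25, 7.02 and 8.56 in p16-. Nr4a2 no longer passed with scaling by library size alone (adjusted p = 0.0512), without p16+ replicate 3 (0.108) or without p16- replicate 3 (0.0983).

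Krüppel-like factors are zinc-finger proteins that bind GC-rich promoters, and 2 of the 3 members were lower in p16+. Klf4, one of the factors used to reprogram cells to pluripotency, was measured at 1511, 1281 and 1385 CPM in p16+ against 2099, 1810 and 2196 CPM in p16- (log2 fold change -0.55 with an SE of 0.09, adjusted p = 0.000491). Klf2, known for its role in endothelium, was measured at 414, 383 and 364 CPM in p16+ against 499, 441 and 480 CPM in p16- (-0.29 with an SE of 0.08, adjusted p = 0.0208). Both genes were lower in each p16+ library than in any p16- library. Klf6 averaged 833 ± 36.1 CPM in p16+ and 918 ± 67.4 CPM in p16-, with overlap (adjusted p = 0.281). Klf2 no longer passed when p16+ replicate 2 (adjusted p = 0.0932), p16+ replicate 3 (0.125) or p16- replicate 3 (0.0904) was left out.

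Of the 3 IER genes, small proteins of differing function named only for their early induction, Ier5 was lower in p16+. Ier5 was measured at 218, 199 and 231 CPM in p16+ against 407, 262 and 318 CPM in p16-, without overlap and with the widest p16- spread relative to its mean among the 3 (log2 fold change -0.61 with an SE of 0.12, adjusted p = 0.00233). Ier2 was measured at 576, 529 and 533 CPM in p16+ against 680, 586 and 631 CPM in p16-, below p16- in all p16+ libraries without passing (-0.21, adjusted p = 0.0911). Ier3 averaged 215 ± 14.9 CPM in p16+ and 178 ± 37.0 CPM in p16-, with overlap (0.27, adjusted p = 0.145). Among other settings, Ier2 passed without p16- replicate 2 (0.0466), with library sizes alone (0.0249), in DESeq2 (0.0395) and with a replicate block. Ier3 passed without p16- replicate 1 (0.00189) and with no filter (0.0177).

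Members that end the early response differed among themselves. Zfp36 encodes tristetraprolin, which binds AU-rich elements and hastens the decay of cytokine and early-response mRNAs. It was measured at 2419, 2266 and 2271 CPM in p16+ against 3346, 2934 and 3407 CPM in p16-, without overlap (log2 fold change -0.48 with an SE of 0.08, adjusted p = 0.000645). Dusp1, a phosphatase that inactivates JNK, p38 and ERK, was measured at 1541, 1561 and 1476 CPM in p16+ against 1299, 1303 and 1445 CPM in p16-. Its p16+ libraries all lay above its p16- libraries, but it did not pass (0.18, adjusted p = 0.145). The ratio of Zfp36 to Dusp1 counts was 1.57, 1.45 and 1.54 in p16+ and 2.58, 2.25 and 2.36 in p16-. Dusp5, a nuclear phosphatase of ERK, averaged 17.1 ± 2.78 CPM in p16+ and 17.2 ± 1.601 CPM in p16- (adjusted p = 0.988). Dusp2 lay between 0.126 and 1.99 CPM (adjusted p = 0.818), and its lowest value was in p16- replicate 2. Of the 7 immediate-early genes whose call held in all 15 alternatives (Egr1, Ier5, Atf3, Zfp36, Klf4, Myc and Maff), all were lower in p16+. The share of all called genes that held in every alternative was not counted.

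**Figure D2:**
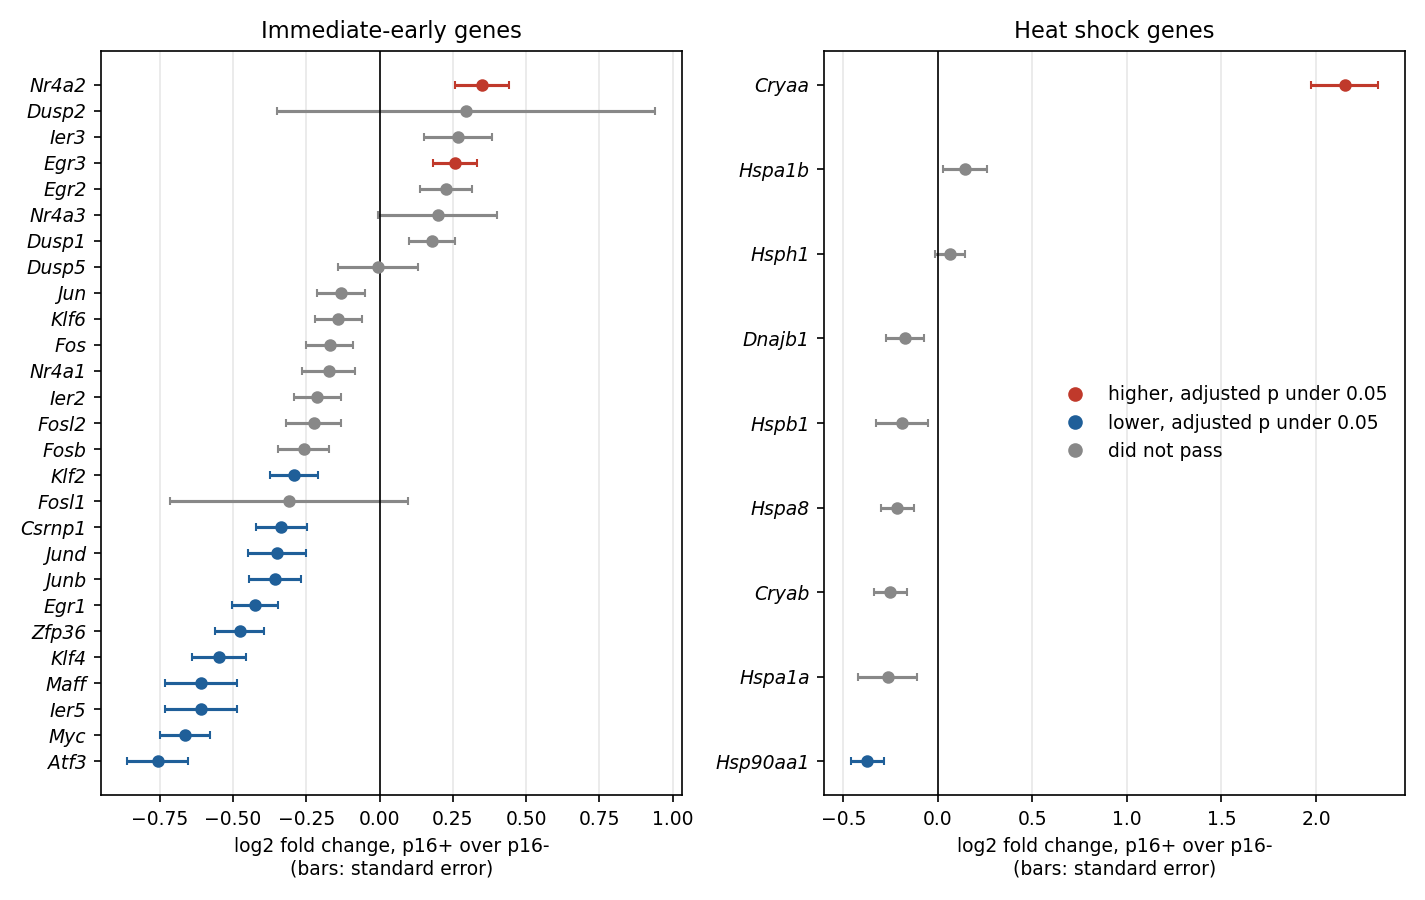
Log2 fold change of each member, p16+ over p16-, with bars of 1 SE from the edgeR fit and colour by call at an adjusted p of 0.05. Immediate-early genes run from Atf3 at -0.76 to Nr4a2 at 0.35, and among heat shock genes Cryaa stands at 2.15 while the other members lie between -0.37 and 0.14.

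The median coefficient of variation of the 27 immediate-early genes was 5.16% among p16+ libraries and 10.2% among p16- libraries, and it was larger in p16- for 22 genes. For the 9 heat shock genes it was 7.77% and 9.68%, larger in p16- for 8. Over all genes tested the medians were 11.2% and 12.1%, and 52.0% of genes varied more in p16-. These spreads were not tested against each other. Among the p16- libraries, replicate 1 was the highest for 20 of the 27 genes, and replicate 2 was the lowest for 17 and the highest for 0. The median deviation of the 27 genes from their mean over the 6 libraries, in log2 CPM, was 0.27 in p16- replicate 1, -0.01 in p16- replicate 2 and 0.17 in p16- replicate 3. In p16+ replicates 1, 2 and 3 it was -0.10, -0.13 and -0.11. Neither these ranks nor these deviations were worked out over all genes, so they cannot be called particular to the members. The part of the filler or the harvest time in this spread was not tested, since neither is given for a library.

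**Figure D3:**
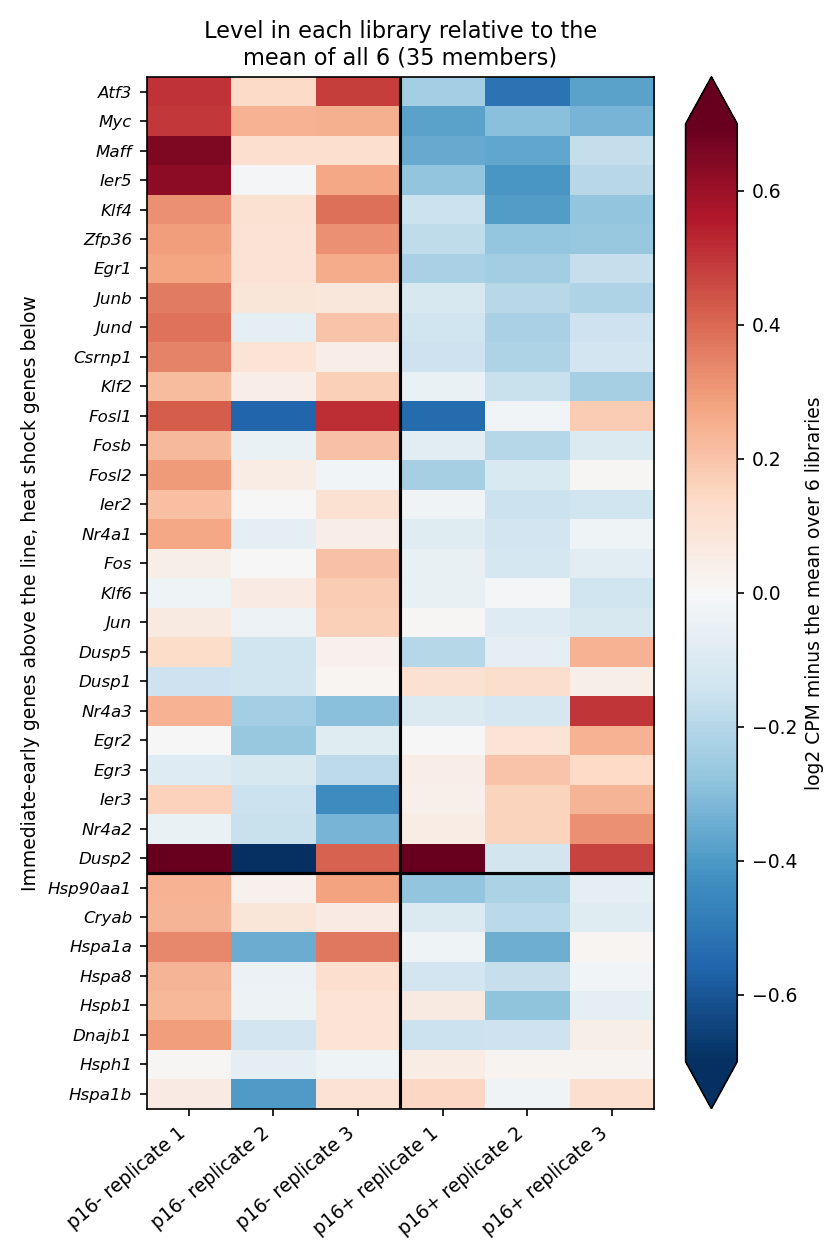
Heat map of log2 CPM minus the mean of the 6 libraries, with members other than Cryaa in rows and libraries in columns. For most immediate-early genes p16- replicates 1 and 3 are above the mean and the p16+ libraries below it, while all 3 p16+ libraries are above it for Nr4a2, Egr3, Egr2, Ier3 and Dusp1, and for Hsph1 among the heat shock genes.

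Further genes of the same pathways were read, without list tests, from lists chosen with earlier results of these data known. Over all genes tested, 16.7% passed in either direction. That share was 52.5% for other early-response genes, 25% for other AP-1, ATF and MAF factors, 19.0% for SRF and MAPK genes and 57.1% for feedback genes. Among heat shock lists with passing genes it was 15.4% for factors and regulators, 27.3% for HSP70, HSP90 and BAG genes, 22.2% for DNAJ genes and 33.3% for small heat shock genes. Of 40 other early-response genes, 6 were higher, 15 were lower and 19 did not pass. Ptgs2, which encodes the inducible cyclooxygenase COX-2, was 143 ± 13.7 CPM in p16+ and 436 ± 12.6 CPM in p16- (log2 fold change -1.61 with an SE of 0.08, adjusted p = 2.98e-08). The transcription factor gene Cebpd was 311 ± 19.7 and 493 ± 46.2 CPM, and Mcl1, a survival protein of the BCL2 family, 722 ± 20.7 and 1112 ± 146 CPM in p16+ and p16-. Higher in p16+ were Rgs2, a brake on G protein signals, at 145 ± 9.33 against 78.1 ± 2.79 CPM, the kinase gene Plk2 at 131 ± 2.62 against 93.1 ± 3.14 CPM, and Nab1, a corepressor of EGR proteins, at 99.4 ± 3.17 against 76.8 ± 3.92 CPM. The adjusted p of these 5 genes lay between 1.04e-06 and 0.00229.

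Of 16 other AP-1, ATF and MAF factors, 1 was higher, 3 were lower (Creb5, 38.5 ± 6.15 CPM in p16+ and 93.9 ± 3.31 CPM in p16-; Maf, 74.0 ± 0.669 and 107 ± 6.03 CPM; Mafg, 65.4 ± 1.98 and 80.1 ± 5.43 CPM) and 12 did not pass. Mafg no longer passed without p16+ replicate 2 (adjusted p = 0.083). Of 21 upstream genes, SRF with its partners and the MAPK kinases, 2 were higher (Elk3, 83.7 ± 4.87 and 60.5 ± 3.49 CPM; Map2k2, 76.6 ± 3.97 and 63.4 ± 5.26 CPM), 2 were lower (Rps6ka3, 92.0 ± 4.03 and 122 ± 10.9 CPM; Mapk9, 48.9 ± 2.02 and 62.4 ± 3.93 CPM) and 17 did not pass. Map2k2 no longer passed when any library other than p16- replicate 1 was left out (0.0671 to 0.165), or with scaling by library size alone (0.121).

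Of 14 other DUSP, ZFP36 and Sprouty-type feedback genes, 5 were higher, 3 were lower and 6 did not pass. Dusp6, the cytoplasmic phosphatase of ERK, was 56.7 ± 4.12 CPM in p16+ and 40.05 ± 1.53 CPM in p16- (adjusted p = 0.000511), Dusp4 was 7.15 ± 0.699 and 3.85 ± 1.19 CPM, and Dusp14 was 5.93 ± 0.468 and 3.58 ± 0.355 CPM. Spry2, a receptor tyrosine kinase inhibitor, was lower at 105 ± 6.60 against 157 ± 12.2 CPM (adjusted p = 0.000107), as were Zfp36l1, a relative of Zfp36, at 364 ± 11.3 against 459 ± 12.1 CPM, and Dusp8 at 25.9 ± 3.84 against 33.5 ± 1.55 CPM. Zfp36l1 is overlapped on the opposite strand over 55.9% of its exonic length. Dusp4 and Dusp14 each no longer passed when any of 3 libraries was left out, p16+ replicate 3 and p16- replicate 3 among them (0.0539 to 0.101), and Dusp8 when any of 5 was (0.0544 to 0.13).

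Heat shock genes were less abundant and, apart from Cryaa and Hsp90aa1, did not pass the test. Cryaa was 4.44-fold higher in p16+, and Hsp90aa1 was 1.30-fold lower. The 9 genes together took 0.151% to 0.167% of a p16+ library and 0.168% to 0.211% of a p16- library. With TMM scaling their summed level overlapped between the groups, at 1552 to 1723 CPM in p16+ and 1653 to 2031 CPM in p16-. Of the 9, 1 was higher (11.1%), 1 was lower (11.1%) and 7 did not pass, close to the 8.69% and 8.04% of all genes. Their median log2 fold change was -0.19. The groups did not overlap for 4 genes, of which 2 were higher in p16+ (Cryaa and Hsph1) and 2 lower (Hsp90aa1 and Cryab). Over all genes the groups did not overlap for 33.1%, with p16+ higher for 16.6% and lower for 16.5%. With p16- replicate 3 left out 0 heat shock genes were called lower, and with p16- replicate 2 left out 3 were. Over all genes these fits called 910 and 1234 lower, in place of 1278.

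The upstream sequences of 3 heat shock genes are shown, since the pair Hspa1a and Hspa1b shares nearly its whole promoter and Hspb1 holds 2 copies of the same element. Capitals mark the heat shock element in the form GAANNTTC. The Hspa1a window is chr17:34972157-34972376 and the Hspa1b window is chr17:34959239-34959458, both on the minus strand, with the element 104 bases upstream of each start. Over the 250 bases before the start, 247 positions of the 2 genes were identical (98.8%). The Hspb1 window is chr5:135887699-135887918 (plus strand), with elements 117 and 97 bases upstream.
Hspa1a: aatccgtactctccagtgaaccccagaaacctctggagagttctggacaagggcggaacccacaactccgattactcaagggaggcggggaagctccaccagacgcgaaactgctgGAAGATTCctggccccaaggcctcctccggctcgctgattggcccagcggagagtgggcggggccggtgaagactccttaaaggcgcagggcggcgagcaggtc
Hspa1b: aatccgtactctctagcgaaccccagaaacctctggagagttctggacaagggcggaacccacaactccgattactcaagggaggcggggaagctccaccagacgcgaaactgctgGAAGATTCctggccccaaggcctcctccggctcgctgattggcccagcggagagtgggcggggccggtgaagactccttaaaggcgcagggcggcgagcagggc
Hspb1: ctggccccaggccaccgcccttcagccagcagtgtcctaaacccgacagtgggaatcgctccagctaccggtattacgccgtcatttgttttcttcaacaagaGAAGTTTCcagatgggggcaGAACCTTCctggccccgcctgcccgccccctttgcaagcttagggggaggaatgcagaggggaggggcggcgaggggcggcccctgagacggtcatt

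HSP70 proteins hold unfolded segments of their clients in an ATP-driven cycle. Hspa8, the constitutive HSC70, was the most abundant heat shock member at 937 TPM, and was measured at 929, 913 and 1006 CPM in p16+ against 1204, 991 and 1108 CPM in p16-. The groups overlapped, and the difference did not pass (log2 fold change -0.21, adjusted p = 0.109). Among other settings, it passed without p16- replicate 2 (0.0323), with scaling by library size alone (0.0313) and with a replicate block. Hspa1a, the stress-inducible HSP70, averaged 30.3 ± 3.96 CPM in p16+ and 36.4 ± 9.30 CPM in p16- (-0.27, adjusted p = 0.295), and passed without p16- replicate 2 (0.0125). Its near copy Hspa1b averaged 45.2 ± 2.81 CPM in p16+ and 40.9 ± 7.40 CPM in p16- (0.14, adjusted p = 0.473). These 2 genes are uncertain, because 60.3% of the 50-base stretches of Hspa1a occur at other loci, mostly in Hspa1b, and 62.3% of those of Hspa1b do, mostly in Hspa1a. For Hspa8, 37.0% of such stretches occur elsewhere.

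The co-chaperones and HSP90 completed the class of larger chaperones. Dnajb1, the HSP40 that delivers clients to HSP70, was measured at 269, 269 and 307 CPM in p16+ against 365, 271 and 318 CPM in p16-, with overlap (-0.18, adjusted p = 0.279). Hsph1, the HSP110 that acts as a nucleotide exchange factor, was measured in a narrow range, 46.9 ± 0.561 CPM in p16+ and 45.0 ± 1.15 CPM in p16-, higher in each p16+ library but without passing (0.06, adjusted p = 0.668). Hsp90aa1 (chr12:110690605-110702728, minus strand), the inducible HSP90, was measured at 182, 189 and 211 CPM in p16+ against 261, 225 and 268 CPM in p16-. All p16+ libraries lay below all p16- libraries (-0.37 with an SE of 0.09, adjusted p = 0.00714). It no longer passed without p16- replicate 3 (0.0538), and 47.5% of its 50-base stretches occur at other loci, mainly the gene model Gm12346.

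Small heat shock proteins hold unfolded proteins without using ATP. Cryaa (chr17:31677807-31681733, plus strand) encodes alpha A-crystallin, best known as a structural chaperone of the eye lens. It was measured at 15.4, 18.5 and 20.6 CPM in p16+ against 3.27, 4.94 and 4.03 CPM in p16-. The lowest p16+ library lay well above the highest p16- library (log2 fold change 2.15 with an SE of 0.18, adjusted p = 6.76e-07), and the log2 fold change stayed between 2.02 and 2.32 in the 15 alternatives. A gene model on the opposite strand, AC090881.2, overlaps 13.2% of the exonic length of Cryaa and had at most 9 counts in a library. Fragments in the overlap can be lost from both genes, so this low count does not show that the Cryaa count is complete. Cryab (chr9:50751325-50756636, plus strand), the alpha B-crystallin of muscle and many other tissues, was measured at 39.1, 36.9 and 39.6 CPM in p16+ against 49.5, 44.5 and 43.7 CPM in p16-. Its p16+ values lay below its p16- values without passing (-0.25, adjusted p = 0.0601). Among other settings, Cryab passed with scaling by library size alone (0.0165) and with a replicate block, and 17.0% of its exonic length is overlapped by Hspb2. Hspb1, the mouse form of HSP27, averaged 13.0 ± 1.55 CPM in p16+ and 14.8 ± 1.38 CPM in p16- (adjusted p = 0.406), and 50.1% of its 50-base stretches occur at other loci.

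Within single libraries, the ratio of Cryab to Cryaa counts was 2.54, 2.00 and 1.93 in p16+ and 15.2, 9 and 10.8 in p16-. The ratio of Hspa1b to Hspa1a counts was 1.48, 1.63 and 1.40 in p16+ and 1.08, 1.26 and 1.09 in p16-. Neither ratio overlapped between the groups, as was true of the ratios of Egr1 to Egr3, Nr4a1 to Nr4a2 and Zfp36 to Dusp1. All 5 ratios were chosen after the values of the genes were seen, so they were not tested and only describe these libraries.

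**Figure D4:**
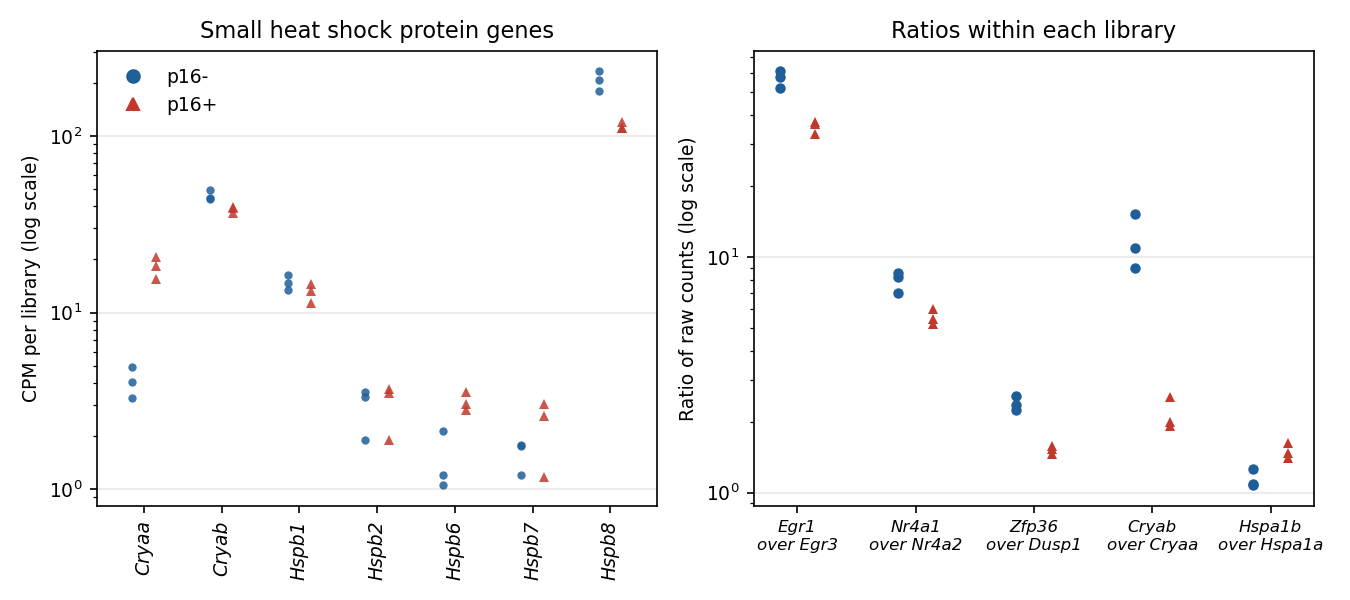
Left, CPM of small heat shock genes in each library on a log axis. Right, ratios of counts of 2 members within a library, with each point 1 library. Cryaa and Hspb6 lie higher in p16+ and Hspb8 lower, and for each of the 5 ratios the p16+ points lie apart from the p16- points.

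Alpha A-crystallin belongs both to the lens crystallins and to the small heat shock proteins, and further genes of both groups were read. Of 24 other crystallin and lens genes, 11 had 0 counts in all libraries and 7 were tested. None of those 7 passed in edgeR. At an unadjusted p under 0.05, 2 were lower in p16+, but the share of all genes at that threshold was not counted. DESeq2 called 1 of the 7 lower and limma-voom 0. The most abundant was Cryl1, a metabolic enzyme, at 13.5 ± 2.71 CPM in p16+ against 14.0 ± 0.672 CPM in p16-. Of 6 other small heat shock genes tested, Hspb6 was higher in p16+ (3.13 ± 0.399 against 1.47 ± 0.588 CPM, adjusted p = 0.039) and Hspb8, a partner of BAG3 in the clearance of misfolded proteins, was lower (114 ± 4.85 against 207 ± 26.0 CPM, log2 fold change -0.86 with an SE of 0.09, adjusted p = 6.83e-06). Hspb6 no longer passed when any library other than p16- replicate 2 was left out (0.0703 to 0.138).

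Heat shock factors and their regulators numbered 13, of which 1 was higher, 1 was lower and 11 did not pass. Hsf1 itself was 34.1 CPM in p16+ and 32.9 CPM in p16- (adjusted p = 0.75). Hsf4, a factor known from the lens, was 6.40 ± 0.755 CPM in p16+ and 3.69 ± 0.540 CPM in p16- (adjusted p = 0.0157), and no longer passed without p16+ replicate 2 (0.082) or p16- replicate 3 (0.0784). Hsf2 was lower at 19.2 ± 1.72 against 32.6 ± 3.85 CPM (adjusted p = 0.000194). Of 11 other HSP70, HSP90 and BAG genes tested, 3 were lower and 8 did not pass: Hspa12b was 10.8 ± 1.93 and 22.1 ± 0.568 CPM, Bag3 199 ± 5.57 and 251 ± 26.4 CPM, and Hspa12a 30.3 ± 0.959 and 38.8 ± 4.78 CPM in p16+ and p16-. Bag3 no longer passed without p16+ replicate 2 (0.0686), nor Hspa12a without any of 4 libraries, p16+ replicates 1, 2 and 3 and p16- replicate 3 (0.0536 to 0.171).

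Of 9 other DNAJ co-chaperones, 2 were lower and 7 did not pass. Dnajb4 was 100.3 ± 5.94 CPM in p16+ and 145 ± 15.6 CPM in p16- (adjusted p = 0.000416), and Dnajc7 was 47.9 ± 1.53 and 57.9 ± 4.604 CPM, which no longer passed when any library other than p16- replicate 2 was left out (0.0733 to 0.129). None of 10 chaperonin genes, the barrel-shaped folding machines of cytosol and mitochondria, passed in edgeR, DESeq2 or limma-voom. At an unadjusted p under 0.05, 1 was lower, but the share of all genes at that threshold was not counted. Cct2, the most abundant of the 10 chaperonin genes, was 125 ± 4.43 CPM in p16+ and 125 ± 8.91 CPM in p16-.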

How the data were processed

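Bulk RNA-seq libraries of sorted stromal cells, 3 p16+ and 3 p16-, were grouped by their titles and reporter labels. The authors deposited whole-number counts of fragments, which featureCounts 1.6.0 assigned to GENCODE M21 exons, per the file headers. Reads were aligned with STAR 2.7.3a to GRCm38.p6 after bcl2fastq, per the submitters' processing notes. Libraries were paired-end with 50 bases per end and carried no strand information, per the labels' protocols, so fragments in overlaps of genes on opposite strands can be lost or misplaced.

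Genes were filtered with filterByExpr, which left 15903, scaled by TMM and tested with edgeR 4.0.16 (R 4.3.3; robust quasi-likelihood F test, group alone), with Benjamini-Hochberg adjustment over all of them and a threshold of 0.05. CPM values are means ± SD of 3 libraries, and SE is the log2 fold change divided by the root of F. TPM used exonic length. With 3 libraries against 3, an exact two-sided permutation test cannot give a p under 0.1, so single values were not tested that way. The gene members and lists were chosen with earlier results of these data known. Values in every library are given for members that passed and for the 6 immediate-early and 3 heat shock genes with the highest TPM among the rest; of each further list, up to 3 passing genes in each direction with the smallest p are named, or the most abundant where none passed. The values of some listed genes are not reported here. Hsf1 was named in addition, after its values were seen, as was Hspb2 where it overlaps Cryab. The 15 alternatives were RLE and upper-quartile factors, library sizes alone, no filter, a stricter filter (1 CPM in 3 libraries), DESeq2 1.42.0, limma-voom (limma 3.58.1), no robust estimation, a replicate block, and each of the 6 libraries left out.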

Additional observations from a re-analysis of the deposited data

How the results depend on the processing

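Over the 36 members and 15 alternatives, 489 of 540 values kept their direction and their side of the threshold, 20 lost the call, 24 gained it and 7 turned in direction. Such a tally was not made for all genes. Immediate-early genes called higher in p16+ numbered 2 in the reported fit, 0 with library sizes alone and 0 to 4 when a library was left out, and those called lower numbered 11 and 7 to 13 when a library was left out. Over all genes, leaving a library out gave 977 to 1333 called higher and 910 to 1234 called lower, in place of 1382 and 1278. Heat shock genes called lower numbered 1, 3 with library sizes alone and 0 to 3 when a library was left out; 1 was called higher in every alternative. Directions that turned were those of Hsph1 with library sizes alone (-0.013), and, with a library left out, of Dusp2 (-0.23 to 0.94), Dusp5 (-0.14 to 0.086), Nr4a3 (-0.036 to 0.39), Cryl1 (-0.17 to 0.10) and Cct2 (-0.043 to 0.060). Cct2 was -0.073 with library sizes alone. The cause of these changes was not tested.

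Replicate numbers are shared by p16+ and p16- titles, but the labels do not say what they mark. Same-numbered libraries had correlations of their deviations from the group means of 0.03, 0.08 and -0.00. The correlations run over all 15903 genes, those with few counts included, and cannot show whether the numbers mark pairs. The reported fit used group alone, with a replicate block as an alternative. Of the p16+ libraries, replicate 2 correlated best with its own number, and replicates 1 and 3 with another. With a replicate block, 3 immediate-early genes were called higher and 13 lower, and 1 heat shock gene higher and 3 lower. Over all genes the block gave 1605 higher and 1509 lower, in place of 1382 and 1278. Among the members, the calls gained with the block were Egr2 (adjusted p = 0.0427), Fosb (0.0161), Ier2 (0.0353), Hspa8 (0.0498) and Cryab (0.0447), and no member lost its call. Dusp2 and Fosl1 had the fewest counts of the members, and the part of counting error in their spread was not tested.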
